A study of Arabidopsis thaliana with 8 samples.

Results

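The 27 genes described here were those whose transcripts stood high in samples 1 and 2 and low in samples 3 and 4 of wild-type Arabidopsis thaliana, with the tic40 mutant between them. They were chosen from their own values. After quantile normalisation, which gives all arrays the same distribution of values, a probe qualified if it named exactly 1 gene, lay above 0 on all 8 arrays and had a mean under the 90th percentile of probes. Both of the wild-type values of samples 1 and 2 had to lie above all 4 tic40 values, those of samples 3 and 4 below all 4, and the means of the 2 wild-type pairs had to lie at least 1 apart on the log2 scale. Of 692 single-gene probes, 612 lay above 0 on all arrays, 549 of these also lay under the ceiling, and 30 met the whole rule. Of the 30, 3 (AT5G55580, ATAB2 and AT4G01310) belong to a list of 7 genes left out here, so 27 remained. The levels and differences that the rule read are given below as a description, without a test.

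RNA came from wild-type plants (WT, ecotype Columbia 0) and from the tic40 mutant in the same ecotype, on 4 arrays each, and each genotype's samples are numbered 1 to 4 in the labels. The labels name no treatment, no tissue, no age and no allele, and nothing in them tells separate plants from repeated measurements of 1 extract. The p-values below therefore cover no more than the spread from array to array, which may be technical. None of the listed markers of green tissue, root, flower, pollen, seed or dividing cells was found among the single-gene probes. The tissue was therefore not checked. Photosynthesis genes outside the marker lists (LHB1B2, NdhN, PSBW and PSBY) did have single-gene probes, but they were not used for such a check. No single-gene probe named TIC40. In bulk RNA, fewer cells of a type and less RNA per cell cannot be told apart.

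TIC40 is a protein of the inner chloroplast envelope that works with the import channel and stromal chaperones to bring nuclear-encoded proteins into the plastid. Most chloroplast proteins are encoded in the nucleus, made in the cytosol and imported in this way. The transcripts of such genes make up part of the genes below, beside genes of the secretory pathway, of signalling and of general metabolism.

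The 2 WT pairs stood apart over the whole array, before any choice of genes. Across probes, WT samples 1 and 2 correlated with each other, as did samples 3 and 4, at 0.946 to 0.947, but the pairs correlated at only 0.707 to 0.722. The tic40 arrays correlated with WT samples 1 and 2 at 0.874 to 0.907 and with WT samples 3 and 4 at 0.739 to 0.800. The deposited medians were 0.361 and 0.354 in WT samples 1 and 2 against 0.559 to 0.604 on the other 6 arrays. The labels give no difference between the WT pairs, and a technical part in the pattern was not tested. The rule was met by 5.38% of all 2751 probes, named or not, that lay above 0 on all arrays and under the ceiling, and the mirror rule (low in WT samples 1 and 2, high in samples 3 and 4) by 7.23%.

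Among the 27 genes, WT samples 1 and 2 exceeded WT samples 3 and 4 by 2.02-fold to 126-fold, with a median of 4.48-fold. The difference was 2 log2 units or more for 16 genes and 3 or more for 7, or for 14 and 4 genes when values under the highest array floor were raised to it. The mean of the 4 tic40 arrays lay nearer to WT samples 1 and 2 than to WT samples 3 and 4 on the log2 scale for 23 genes, and nearer to WT samples 3 and 4 for AT1G44920, AT5G11650, ATSIK and DAL1. Across all probes, tic40 also correlated more closely with WT samples 1 and 2 (0.874 to 0.907) than with samples 3 and 4 (0.739 to 0.800). The share of all probes with this nearness was not counted, so it is not read as a trait of these genes. WT samples 1 and 2 stood above tic40 by a median of 1.53-fold, and tic40 stood above WT samples 3 and 4 by a median of 2.65-fold. The genes were not bright ones as a group: their mean levels spanned percentiles 2.14 to 85.8 of all tested probes, with a median at 40.1.

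**Figure D1:**
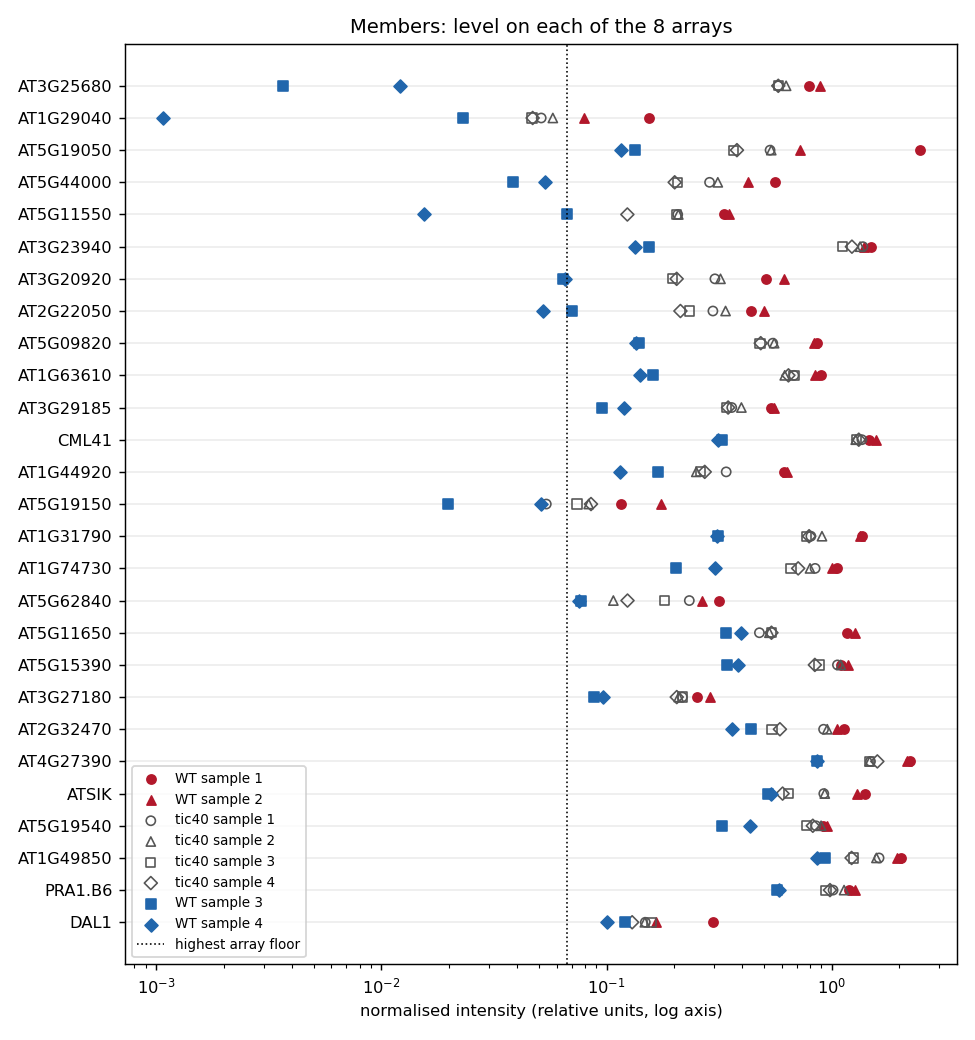
Normalised intensity (horizontal, log axis, relative units) of the 27 genes (rows, ordered by the difference between the WT pairs) on each of the 8 arrays. Red symbols are WT samples 1 and 2, blue symbols WT samples 3 and 4, open symbols the 4 tic40 samples, and the dotted line is the highest of the array floors, 0.0665. In every row the open symbols lie between blue and red, as the rule required, and 7 genes have at least 1 value left of the line.

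Of the 27 genes, 4 encode proteins with known work in the plastid, and their WT pairs differed by 2.05 to 3.32 on the log2 scale. Neither this group nor those below were counted among all single-gene probes, so their sizes cannot be called large or small. The roles given here and below are background knowledge of these loci, since the gene table used here gives only a locus name for most of them. AT3G23940 encodes dihydroxyacid dehydratase, an enzyme of branched-chain amino acid synthesis. Its normalised intensity was 1.49 and 1.39 in WT samples 1 and 2, 0.154 and 0.134 in WT samples 3 and 4, and 1.38, 1.34, 1.11 and 1.23 in tic40 samples 1 to 4. The tic40 arrays thus sat close under WT samples 1 and 2, with 1.26 ± 0.118 (SD, n = 4), and 8.75-fold above WT samples 3 and 4.

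AT5G09820 encodes a fibrillin, a plastid lipid-associated protein needed for plastoquinone synthesis. It stood at 0.858 and 0.831 in WT samples 1 and 2, at 0.139 and 0.135 in WT samples 3 and 4, and at 0.548, 0.555, 0.481 and 0.484 in the tic40 samples. The values within each WT pair were nearly equal, and the pairs differed by 6.15-fold. AT3G29185, which encodes an assembly factor of the chloroplast ATP synthase, had 0.535 and 0.557 in WT samples 1 and 2, 0.0958 and 0.119 in WT samples 3 and 4, and 0.360, 0.397, 0.342 and 0.347 in tic40. Here the tic40 arrays lay 1.51-fold under the first WT pair and 3.37-fold above the other. AT1G74730 encodes a thylakoid protein that acts on grana stacking and non-photochemical quenching. Its pair means were 1.03 and 0.253, with 0.754 ± 0.0839 in tic40 (SD, n = 4).

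The secretory pathway and signalling were represented by 4 genes, with differences between the WT pairs of 2.12-fold to 8.62-fold. AT3G20920 encodes a homologue of Sec62, part of the protein translocation machinery of the endoplasmic reticulum. It stood at 0.508 and 0.615 in WT samples 1 and 2, at 0.0642 and 0.0656 in WT samples 3 and 4, and at 0.303, 0.321, 0.196 and 0.205 in tic40 samples 1 to 4. The tic40 values fell into 2 levels by number, with samples 1 and 2 above samples 3 and 4. CML41, a calmodulin-like calcium sensor, was measured at 1.47 and 1.58 in the first WT pair and at 0.325 and 0.313 in the other, while tic40 held 1.36, 1.28, 1.29 and 1.32. For CML41 the 4 tic40 values hardly varied, at 1.31 ± 0.0365 (SD, n = 4).

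ATSIK, a protein kinase, stood at 1.40 and 1.30 in WT samples 1 and 2 and at 0.524 and 0.535 in WT samples 3 and 4. In tic40 it stood at 0.923 and 0.932 in samples 1 and 2 and at 0.644 and 0.605 in samples 3 and 4. The numbers thus separated in tic40 as well, while in WT the rule required this. PRA1.B6 is a member of the prenylated Rab acceptor family, membrane proteins of vesicle traffic. Its pair means were 1.23 and 0.580, with 1.02 ± 0.0827 in tic40 (SD, n = 4), and its difference of 1.08 on the log2 scale was the second smallest of the 27.

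Another 4 genes were assigned here to enzyme families. AT5G44000 belongs to the glutathione S-transferase family, whose members attach glutathione to other molecules or reduce them. It stood at 0.559 and 0.423 in WT samples 1 and 2, at 0.0385 and 0.0535 in WT samples 3 and 4, and at 0.287, 0.312, 0.207 and 0.201 in tic40. Both low WT values lay under the highest floor of 0.0665. The difference of 3.42 on the log2 scale became 2.87 when values under that floor were raised to it.

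AT5G11650, which encodes a hydrolase of the alpha/beta fold, differed in where tic40 lay. WT samples 1 and 2 held 1.17 and 1.27, WT samples 3 and 4 held 0.340 and 0.395, and tic40 held 0.478, 0.529, 0.540 and 0.540. The tic40 arrays were 2.35-fold under the first WT pair and only 1.42-fold above the other. AT5G15390 encodes an RNA methyltransferase of the SpoU family. Its pair means were 1.14 and 0.364, and tic40 stood at 0.970 ± 0.128 (SD, n = 4). The lower of its values in the first WT pair lay only 0.0046 log2 units above the highest tic40 value. AT5G19150 encodes a dehydratase that repairs hydrated NADH and NADPH, and it was dim throughout, at percentile 4.76 of tested probes. Its values were 0.116 and 0.175 in WT samples 1 and 2, 0.0197 and 0.0513 in WT samples 3 and 4, and 0.0540, 0.0833, 0.0740 and 0.0853 in tic40.

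The families of F-box and RING proteins, many of which select proteins for ubiquitination, were represented by 3 genes. AT2G22050, of the kelch-repeat F-box family, stood at 0.438 and 0.500 in WT samples 1 and 2, at 0.0705 and 0.0522 in WT samples 3 and 4, and at 0.297, 0.338, 0.234 and 0.213 in tic40. AT2G32470, of the F-box associated family, stood at 1.14 and 1.06 in the first WT pair and at 0.439 and 0.362 in the other. Its tic40 values separated by number, with 0.921 and 0.956 in samples 1 and 2 and 0.544 and 0.589 in samples 3 and 4. AT1G49850, of the RING family, was among the brightest of the 27, with 2.02 and 1.96 in WT samples 1 and 2 and 0.934 and 0.865 in WT samples 3 and 4. Its tic40 values, 1.62, 1.58, 1.25 and 1.23, again lay higher in samples 1 and 2.

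For the remaining 12 genes no role is given here, so the groups above may not hold every gene of their kind. AT3G25680 had the widest difference of the 27. It stood at 0.792 and 0.889 in WT samples 1 and 2, at 0.00366 and 0.0121 in WT samples 3 and 4, and at 0.578, 0.628, 0.582 and 0.579 in tic40. The ratio of 126-fold rests on 2 values far under the highest floor. With values raised to that floor it was 12.6-fold, still the widest.

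AT1G29040 was the dimmest, at percentile 2.14, with 0.154 and 0.0796 in WT samples 1 and 2, 0.0230 and 0.00107 in WT samples 3 and 4, and 0.0513, 0.0578, 0.0466 and 0.0470 in tic40. Its log2 difference of 4.48 became 2.27 without WT sample 4, and 0.73, under the rule's minimum of 1, with the common floor. AT5G19050 rested on WT sample 1 for its size. Its values were 2.46 and 0.721 in WT samples 1 and 2, 0.133 and 0.116 in WT samples 3 and 4, and 0.533, 0.539, 0.365 and 0.380 in tic40, and the log2 difference of 3.42 was 2.54 without WT sample 1. AT5G11550 stood at 0.332 and 0.351 in the first WT pair, 0.0667 and 0.0154 in the other and 0.207, 0.208, 0.205 and 0.124 in tic40. Its log2 difference of 3.41 was 2.35 without WT sample 4.

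AT1G63610 was even within each group, with 0.898 and 0.843 in WT samples 1 and 2, 0.161 and 0.140 in WT samples 3 and 4, and 0.680, 0.619, 0.680 and 0.643 in tic40. AT1G44920 had pair means of 0.625 and 0.142 and a tic40 mean of 0.282 ± 0.0401, and AT1G31790 had 1.35, 0.311 and 0.820 ± 0.0588 (SD, n = 4). AT5G62840 had pair means of 0.290 and 0.0764. Its tic40 arrays were uneven, with 0.161 ± 0.0574 (SD, n = 4). AT3G27180 had pair means of 0.271 and 0.0923, and its tic40 values, 0.212 ± 0.00593 (SD, n = 4), were tightly grouped. AT5G19540 had pair means of 0.935 and 0.379 with a tic40 mean of 0.836 ± 0.0532. AT4G27390 was the brightest of the 27 by its mean level, with pair means of 2.19 and 0.861 and a tic40 mean of 1.51 ± 0.0598 (SD, n = 4).

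DAL1 had the smallest difference that met the rule, 1.01 on the log2 scale, and it was 0.60 without WT sample 1. Its values were 0.297 and 0.166 in WT samples 1 and 2, 0.121 and 0.100 in WT samples 3 and 4, and 0.149, 0.148, 0.158 and 0.130 in tic40. The gene identifier that the platform annotation gives for DAL1 was not matched in the TAIR10.1 gene table, which uses that symbol for another identifier, so the probe keeps the platform's name and no role is stated. The other 26 genes were matched. Just outside the rule stood AT5G49800, with a difference of 0.99 and pair means of 0.743 and 0.374, and SAP, a regulator of flower development, with 0.96 and pair means of 0.416 and 0.212. The tic40 means of these genes, 0.575 for AT5G49800 and 0.248 for SAP, also lay between their WT pairs.

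The part of the rule that places WT samples 3 and 4 below tic40 held as deposited and with median centring. The part that places WT samples 1 and 2 above tic40 depended on the scaling. All 27 genes had WT samples 3 and 4 below all tic40 values in the table as deposited and with each array centred on its median. With quantile normalised values under the highest floor of 0.0665 raised to it, this part failed for AT1G29040 and AT5G19150. All tic40 values of AT1G29040, and tic40 sample 1 of AT5G19150, then tied with WT samples 3 and 4. WT samples 1 and 2 lay above all tic40 values for 22 genes with median centring and for 5 as deposited. As deposited, the mean of WT samples 1 and 2 was below the tic40 mean for 14 of the 27 genes on the log2 scale. Over the 3083 probes above 0 on all arrays, the median difference between WT samples 1 and 2 and tic40 was -0.62 as deposited and 0.00 after quantile normalisation. The whole rule was met as deposited by AT1G44920, AT1G31790 and AT5G11650.

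Examples show what this means for single genes. In deposited units, AT3G23940 averaged 1.12 in WT samples 1 and 2, 0.132 in WT samples 3 and 4 and 1.34 in tic40. The first WT pair thus stood under the mutant, and the other pair stood far under both. AT5G11650 averaged 0.930, 0.383 and 0.585 in the same order and kept tic40 between the pairs. In deposited units the difference between the WT pairs stayed above 0 for all 27 genes and reached at least 1 log2 unit for 20, although the median of all 3083 probes lay at -0.64.

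**Figure D2:**
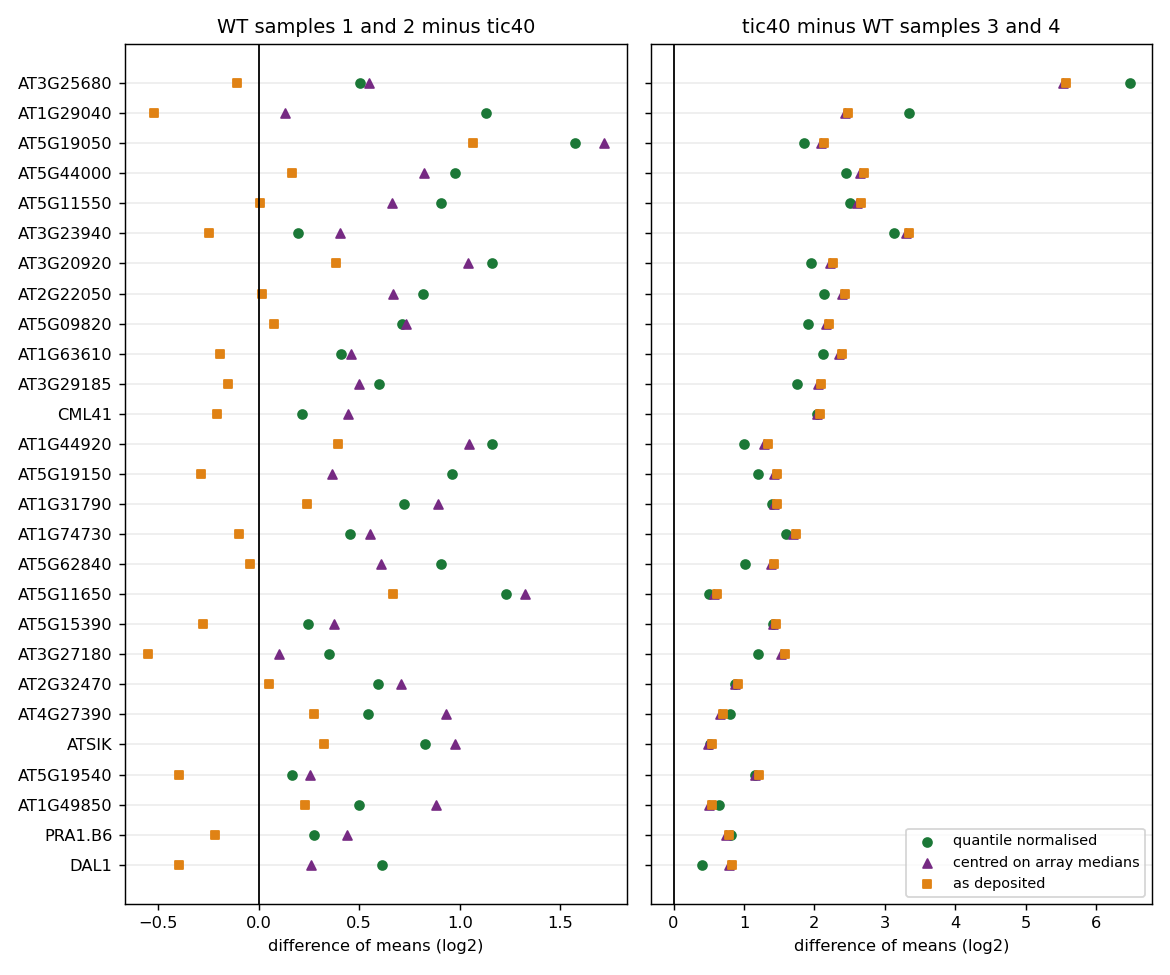
Log2 differences of means for the 27 genes (rows) under quantile normalisation (circles), centring on array medians (triangles) and the table as deposited (squares), for WT samples 1 and 2 minus tic40 (left) and tic40 minus WT samples 3 and 4 (right). The squares on the left fall on both sides of 0, with 14 of 27 below it, while all symbols on the right lie above 0.

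The comparison that the study set out to make, between tic40 and WT, averages over both WT pairs. Limma, a linear model with a shared estimate of the spread, called 255 of 3318 probes between the genotypes (7.69%) at a Benjamini-Hochberg adjusted p under 0.05, and 5 (0.151%) in the fit with a replicate block for the sample number. It called 0 of the 27 genes either way, and 0 had an unadjusted p under 0.05. The rule read these same values, and it picked genes whose WT arrays straddle tic40, so nothing is read from that count. The fitted tic40 minus WT difference ranged from -0.36 for AT5G11650 to 2.99 for AT3G25680 on the log2 scale, with a median of 0.43 over the 27 genes and -0.06 over all tested probes.

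The rule read all 4 tic40 values of a gene, which had to lie between the WT pairs, but it set no order among them. The same split of sample numbers, samples 3 and 4 minus samples 1 and 2, was therefore fitted within tic40. With 2 arrays against 2, such a fit measures only the spread within each pair of arrays, and the split was taken from the WT arrays. It is also not free of the choice of genes, since same-numbered samples of the genotypes deviated together over all probes (correlations of 0.254 to 0.310). Of 3282 probes, limma called 606, with 256 (7.80%) higher and 350 (10.7%) lower in tic40 samples 3 and 4. Of the 27 genes, 6 were called lower, 0 higher, and 10 had an unadjusted p under 0.05. These 10 were all lower. Over all 3282 probes, 1327 had an unadjusted p under 0.05 in either direction. How many of those were lower was not counted, so nothing is read from 10 of 27. The 6 genes were AT2G32470, AT3G20920, ATSIK, AT5G44000, AT5G19050 and AT1G49850, of which 2 belong to the F-box and RING families and 2 to the secretory and signalling genes. None of the 4 plastid genes passed, though their differences all lay below 0, at -0.26 to -0.13. With 10.7% of all probes called lower, groups this small cannot be set against each other, and nothing is read from these counts.

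AT2G32470 fell the furthest, by 0.73 on the log2 scale (SE 0.08, limma adjusted p = 0.0269), followed by AT3G20920, which fell by 0.64 (adjusted p = 0.0282). ATSIK fell by 0.57 (limma adjusted p = 0.0299) and AT5G44000 by 0.55 (adjusted p = 0.0343). AT5G19050 fell by 0.53 (limma adjusted p = 0.0301) and AT1G49850 by 0.37 (adjusted p = 0.0415). In all 6, both tic40 samples 3 and 4 lay below both samples 1 and 2. The sizes were 1.29-fold to 1.66-fold, against 2.21-fold to 10.7-fold between the WT pairs of the same genes. The calls did not hold when any 1 tic40 array was left out, with the lone sample assumed to vary like the others. The median difference over the 27 genes was then -0.21 to -0.18. With all 8 arrays in 1 fit, which called 262 of 3282 probes lower (7.98%), AT3G20920, AT2G32470, ATSIK and AT1G49850 passed (adjusted p of 0.0145 to 0.0358), while AT5G19050 (adjusted p = 0.547) and AT5G44000 (adjusted p = 0.121) did not.

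The other 21 genes did not pass. Of the 27, 8 were called lower with the table as deposited, 8 when only probes above 0 on all arrays were tested, and 7 with the tic40 arrays normalised alone, and 0 were called higher in any of these. Over all probes, the same settings in that order called 440 of 3282, 438 of 3083 and 347 of 3282 lower. They called 152, 363 and 243 higher. AT2G22050 had a log2 difference of -0.50 (limma adjusted p = 0.0523), AT5G15390 one of -0.33 (adjusted p = 0.0514) and the plastid gene AT1G74730 one of -0.26 (adjusted p = 0.0883). The plastid genes AT3G23940 and AT5G09820 had -0.21 (limma adjusted p = 0.142) and -0.19 (adjusted p = 0.104). CML41 had -0.01 (limma adjusted p = 0.889) and AT3G25680 -0.05 (adjusted p = 0.630), although their WT pairs differed by 4.79-fold and, with the common floor, 12.6-fold. AT5G19150 had the highest value, 0.24 with an SE of 0.25.

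As a description of the list, 23 of the 27 differences lay below 0, with a median of -0.16, against 46.6% below 0 and a median of 0.02 over all probes tested. Both tic40 samples 3 and 4 lay below both samples 1 and 2 for 17 of the 27 genes and for 32.5% of all probes. The opposite order held for 1 of the 27, AT5G11650, and for 36.8% of all probes. The genes were chosen for lower values in WT samples 3 and 4, and same-numbered samples deviated together, so the figures for all probes are not the values that such a choice gives with no difference in tic40. The genes also share arrays and are not independent of each other.

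**Figure D3:**
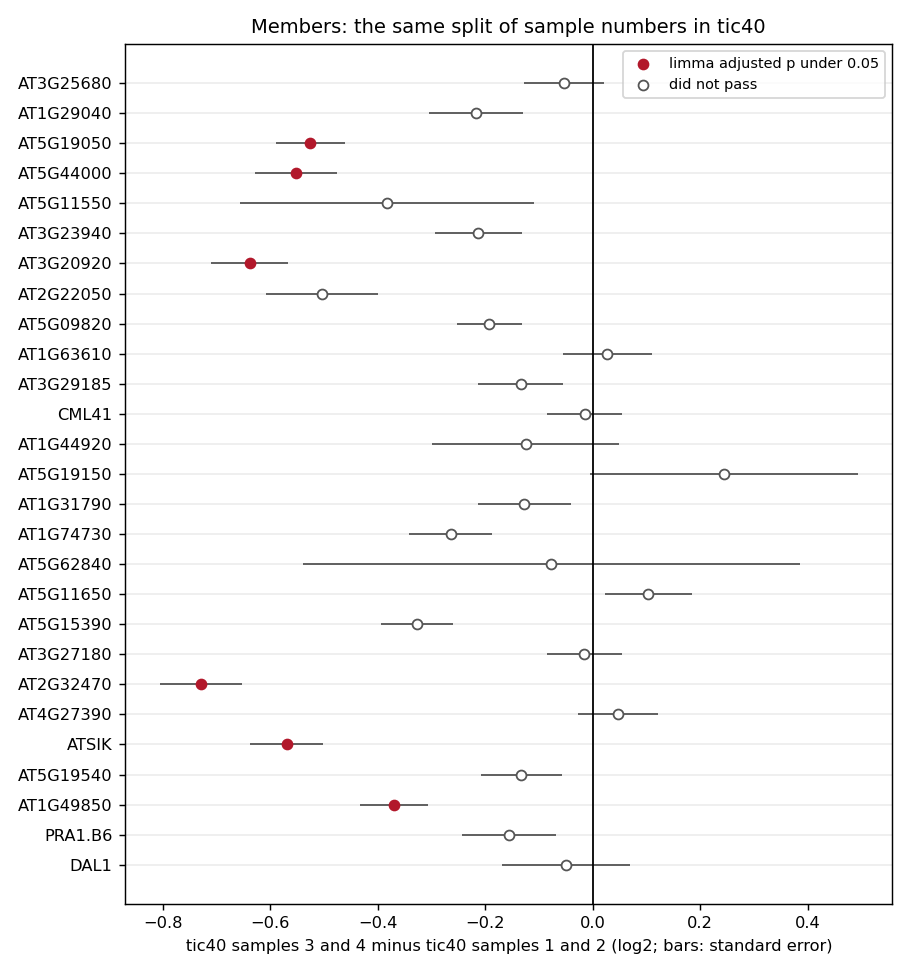
Fitted difference between tic40 samples 3 and 4 and tic40 samples 1 and 2 (log2, horizontal, with standard errors) for the 27 genes (rows). Filled symbols mark the 6 genes with a limma adjusted p under 0.05, all left of 0, and open symbols mark those that did not pass.

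**Figure D4:**
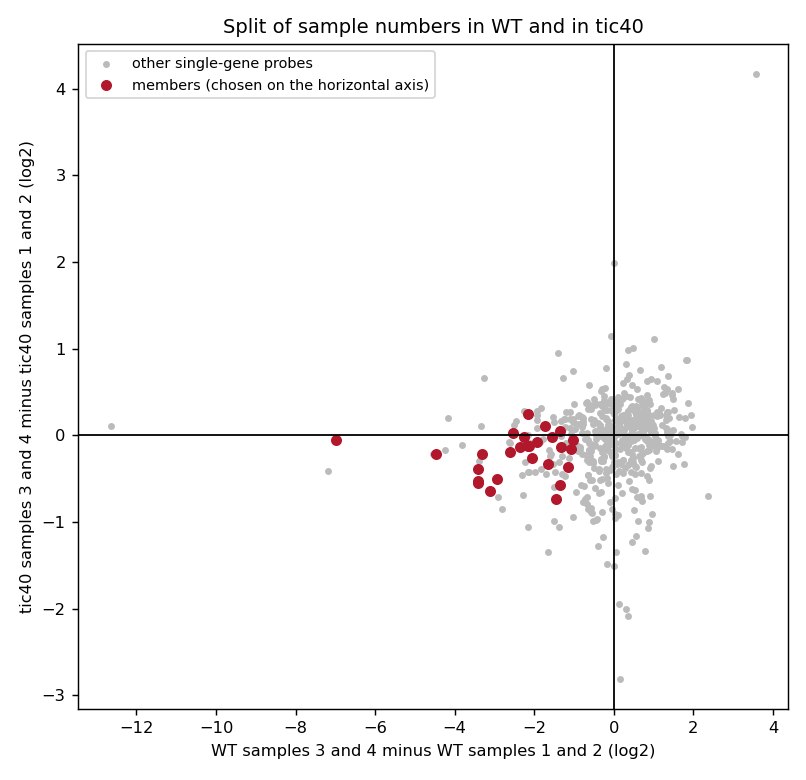
Difference between samples 3 and 4 and samples 1 and 2 in WT (horizontal) and in tic40 (vertical), both log2, for the 549 single-gene probes that could have met the rule, with the 27 genes in red. The red points lie left of -1 because the rule chose them there, and vertically they run from -0.73 to 0.24.

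Lists of photosynthesis, pigment synthesis, organelle gene expression, protein folding, kinases, transcription factors, transport and metabolic enzymes were filled by words in the symbols and synonyms of the gene table. They held 29 genes and 0 of the 27. Only 2 of the 27 genes, and 65 of the 692 single-gene probes, had words among their synonyms, so these lists could hardly hold any of the 27 and say nothing of their functions. In the tic40 split the largest of these lists, metabolic enzymes, had 14 tested probes, of which 0 were called higher and 1 lower, and the other lists had 0 calls. In the gene order of TAIR10.1 no 2 of the 26 matched genes were neighbours. The closest were AT5G19050 and AT5G19150, 10 protein-coding genes apart, and AT5G11550 and AT5G11650, 11 apart.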

How the data were processed

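The authors deposited 1 intensity per probe and array for 3439 probes on 8 one-colour arrays. From the values, these are linear, never negative and on a relative scale; the scanner, the scaling and the probe sequences are not given here. Arrays have no depth, and their number limits the precision. The log2 medians of the arrays spanned 0.716, and the values were quantile normalised with limma 3.58.1 in R 4.3.3. Exact zeros were then set to percentile 1 of that array's positive values (0.0147 to 0.0665), and log2 was taken. Values above 0 were not floored, so some lie under these floors. Probes at 0 on every array (121) were dropped. The tic40 split also left out 36 probes at 0 on all 4 tic40 arrays. The ceiling of the rule, the 90th percentile of probe means, stood at 1.83.

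The differences were fitted with lmFit and eBayes over all probes, two-sided, with Benjamini-Hochberg adjustment. Deviations from the genotype mean correlated between same-numbered samples of both genotypes at 0.254 to 0.310, so the numbers may mark pairs of samples. The fit reported has no block, and the count with the number as a block is given beside it. The pairing comes from this check, not from the labels. No such block can be used for the split within tic40, where the numbers are the split.

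Names came from the platform annotation, with 692 single-gene, 870 several-gene and 1877 unnamed probes. Of the single names, 690 were matched in TAIR10.1. Coordinates are left out, since no build is stated for the probes. Promoters and proteins were not analysed here. The rule for named genes was to name every gene of the set, with values in each sample for the 12 largest differences and for genes called in tic40. AT5G19150 and AT5G11650 and DAL1 were added after their values were seen. The genes, roles and lists were chosen with earlier results of these data known.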

Additional observations from a re-analysis of the deposited data

Results flagged for a closer look

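Among the tic40 values of the 27 genes, 3 sets of 4 had a sample far from the other 3 by Dixon's test on the log2 scale, where chance flags about 1 in 20 sets. The rule splits the WT values into 2 high and 2 low, so the test could hardly mark a WT sample, and it marked 0. AT3G25680 was high in tic40 sample 2, at 0.628 against 0.578 to 0.582 in the other tic40 samples. AT5G11550 was low in tic40 sample 4, at 0.124. AT4G27390 was high in tic40 sample 4, at 1.60. AT5G11650 stood 0.10 higher on the log2 scale in tic40 samples 3 and 4 than in samples 1 and 2 (limma adjusted p = 0.399), with no overlap of the values. In WT the order was the opposite, as its choice required, and the difference between the genotypes was not tested.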

How the results depend on the processing

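The number of genes that met the rule was 27. It was 3 with the table as deposited, all 3 among the 27, and 38 with median centring, 22 of them among the 27. It was 30 and 20 with a minimum difference of 0.75 and 1.5, and 27 with no ceiling. Leaving out 1 array gave 29 to 40. It was 22 with zeros taken as missing and 25 with 1 common floor, settings chosen after seeing the data. Between genotypes 255 probes were called, and 5 with the replicate block. Leaving out 1 array gave 40 to 242, and 217 and 242 without WT samples 1 and 2, 126 and 125 without WT samples 3 and 4, and 40, 43, 47 and 48 without tic40 samples 1 to 4. The split of those calls was 77 higher and 178 lower, against 311 higher and 46 lower as deposited. Within tic40, 606 probes and 6 of the 27 genes were called. Leaving out 1 tic40 array gave 23 to 63 probes and 0 genes. As deposited 8 genes were called, 8 with only probes above 0 on all arrays, 6 with median centring and 4 with all 8 arrays in the fit. The calls over all probes split into 256 higher and 350 lower, against 152 and 440 as deposited and 322 and 325 with median centring. They were 363 and 438 with only probes above 0 on all arrays, and 162 and 262 with all 8 arrays in the fit. The median over the 27 genes, -0.16, was -0.23 as deposited and -0.21 to -0.18 without 1 tic40 array. No difference between the WT pairs changed sign under the other scalings. With the common floor or without 1 WT array no sign could reverse, because the rule had already separated the pairs in those same values. The cause of the changes was not tested.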
